A study of Homo sapiens with 82 samples.

Results

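The liver X receptors (LXRs) switch on a small group of sterol handling genes. Here 6 genes grouped under the name of sterol efflux and direct LXR targets were followed across 8 groups of RNA-seq libraries of HT29 cells. They are ABCA1, ABCG1, MYLIP, LPCAT3, SMPDL3A and TTC39B, of which TTC39B rose with no drug in these libraries. The genes were picked by symbol from the gene count tables of 24 and 48 h, where each symbol had its row, and they make up 6 of 51838 rows. HT29 is a human colorectal adenocarcinoma line, so all groups stand for 1 cell line in culture. Cells received DMSO, the solvent of the drugs, or 10 μM of GW3965, T0901317 or rosiglitazone, and 4 libraries were made per group and time. GW3965 and T0901317 are LXR agonists and rosiglitazone is an agonist of the nuclear receptor PPARG. According to the methods, all groups were kept before treatment in medium without phenol red whose serum had been stripped with charcoal and dextran, and treatments were done in quadruplicate. Nothing says whether these were separate cultures grown on separate days, so p-values measure the spread between these libraries, which may be technical.

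LXRs bind DNA as partners of the retinoid X receptors, at pairs of a short repeat, and are turned on by oxidised cholesterol when sterol accumulates in a cell. The genes they then raise export cholesterol across the plasma membrane, limit its uptake, and remodel membrane phospholipids. In the intestinal epithelium this program is known for sending absorbed cholesterol into HDL particles.

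The 32 RNA-seq libraries held between 21044798 and 51332656 counts each. Levels are given as CPM, counts per 1000000 counts of the library after TMM scaling, and changes as log2 fold changes with their standard error (SE). A gene is said to rise or fall where edgeR's quasi-likelihood test gave a Benjamini-Hochberg adjusted p under 0.01 over all genes tested, 21781 at 24 h and 22470 at 48 h. The 3 drugs of a time point were compared with the same 4 DMSO libraries, so their changes are not independent of each other. The 8 epithelial markers EPCAM, KRT8, KRT18, KRT19, KRT20, CDH1, CDX2 and VIL1 were present in every library and together stood at 14643 to 22389 CPM. Of 10 markers of leukocytes, fibroblasts and endothelium, 9 were in the tables, and together they stood at 4.10 to 12.3 CPM. Of these, PTPRC, CD3E, COL1A2, DCN and CDH5 had no count in 25 to 31 of the 32 libraries, and the sum was carried by CD14 and COL1A1. KRT20 and VIL1, which mark mature enterocytes, moved apart with rosiglitazone at 48 h, where KRT20 rose by 1.75 and VIL1 fell (adjusted p = 1.71e-09 and 4.89e-07). Of the 8 epithelial markers 3 rose and 2 fell with this drug at 48 h, against 12.3% and 13.1% of all genes. With GW3965 at 48 h 4 rose and 0 fell, against 16.1% and 17.5%. With T0901317 at 48 h 2 rose and 2 fell, against 14% and 16.1%. The part of such shifts in the results was not tested. The summed markers of other cell types stood at 10.0 to 12.3 CPM with GW3965 or T0901317 at 48 h against 5.70 to 7.30 CPM in the DMSO libraries of that time.

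**Figure D1:**
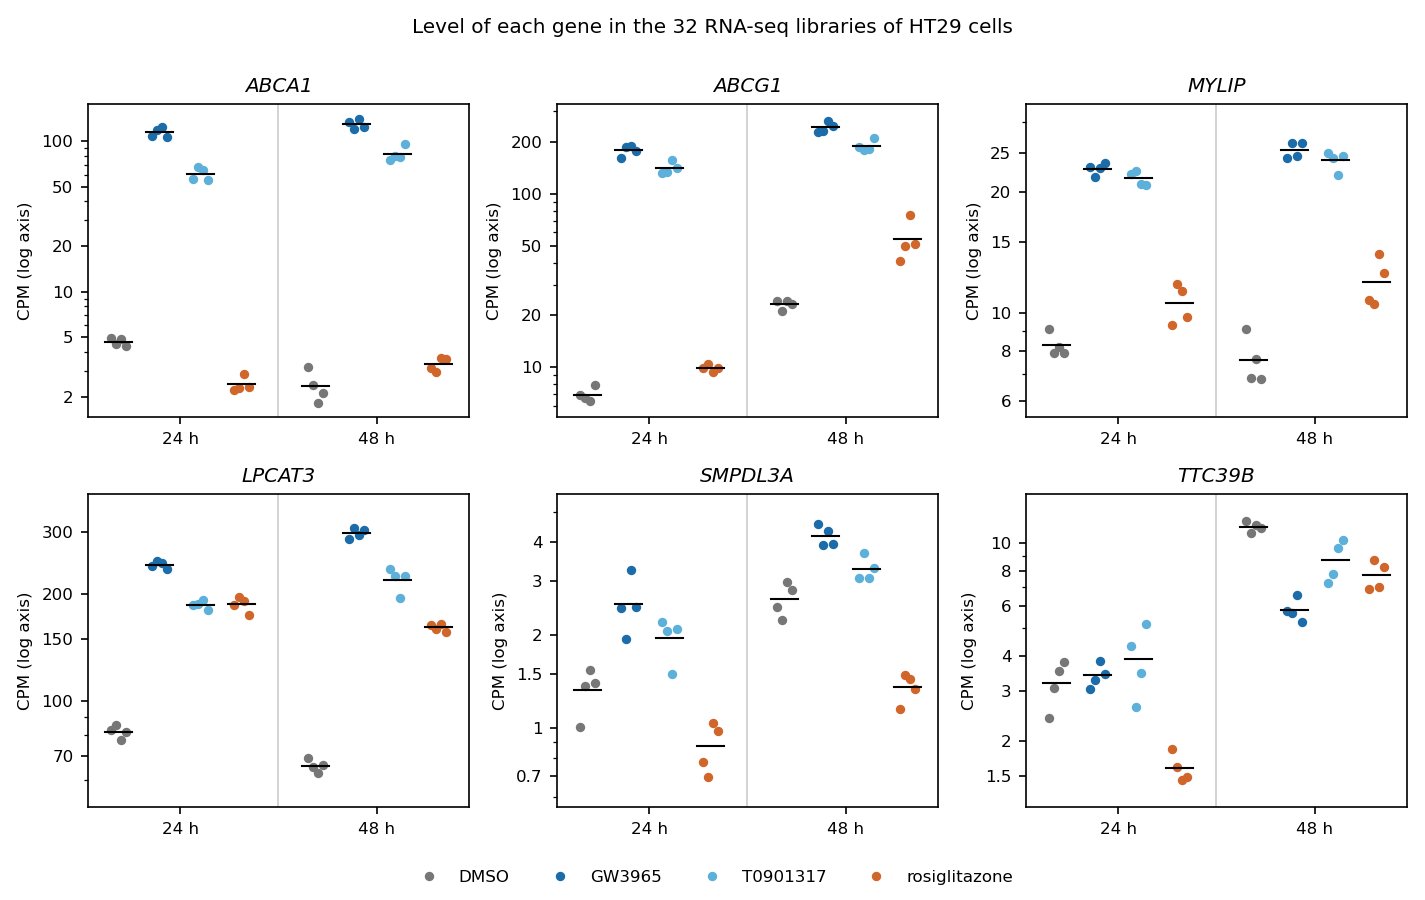
Level of each of the 6 genes in CPM on a log axis, with 1 point per library, 4 libraries per group and a line at the group mean. ABCA1 and ABCG1 stood above 55 CPM in all 16 libraries treated with GW3965 or T0901317 and at or below 24.1 CPM in all 8 DMSO libraries, while TTC39B was highest in the DMSO libraries of 48 h.

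GW3965 raised 5 of the 6 genes at 24 h, and T0901317 raised 4 of them. The efflux pumps ABCA1 and ABCG1 changed most with both agonists, by 3.04 to 5.77 on the log2 scale, and MYLIP and LPCAT3 followed with changes from 1.19 to 2.18. SMPDL3A changed least among those that rose, and TTC39B did not rise with any drug at either time. Over all genes tested at 24 h, 1.86% were higher and 0.868% lower with GW3965, and 1.33% were higher and 0.119% lower with T0901317. At 48 h GW3965 again raised 5 of the 6 genes, against 16.1% of all genes, and lowered 1, TTC39B, against 17.5%. T0901317 at 48 h raised 4, against 14% of all genes, and lowered 1, again TTC39B, against 16.1%. Rosiglitazone raised 3 and lowered 2 at each time. Of all genes this drug raised 5.81% at 24 h and 12.3% at 48 h, and it lowered 6.52% and 13.1%. With GW3965 the 6 genes had a median log2 change of 1.51 at 24 h and 1.96 at 48 h, beside -0.01 and 0.00 for all genes. With T0901317 it was 1.29 and 1.70, beside 0.00 and 0.01 for all genes, and with rosiglitazone it was -0.14 and 0.55, beside -0.02 and -0.01.

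**Figure D2:**
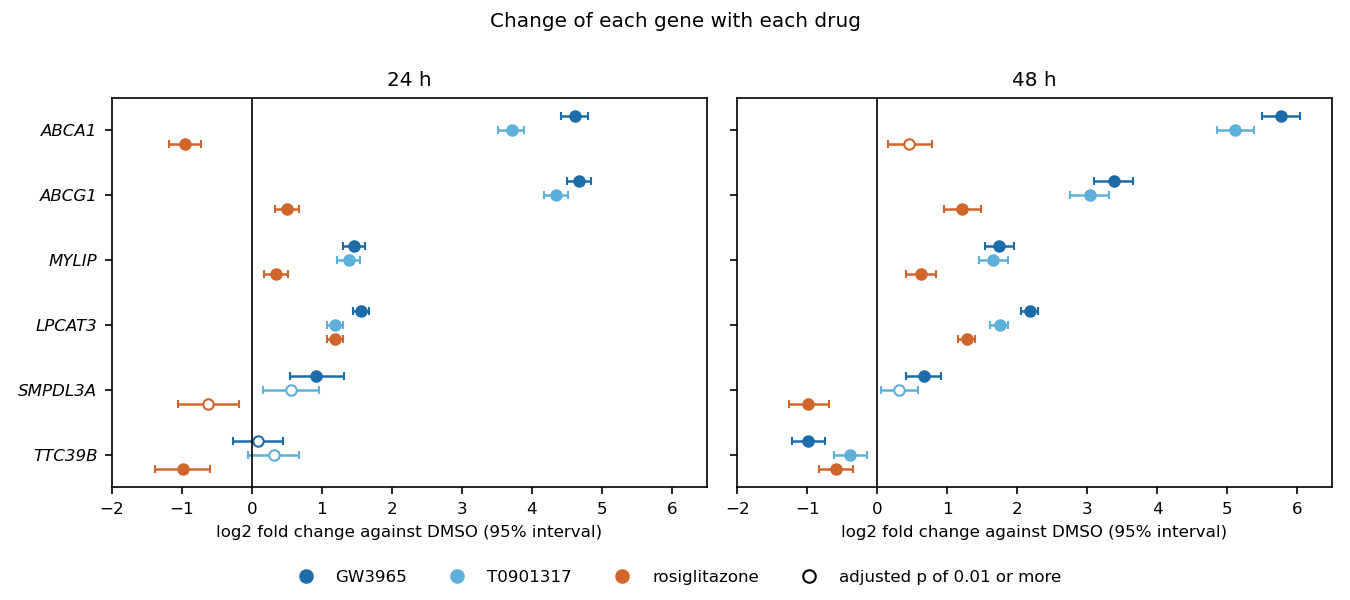
Log2 fold change of each gene against DMSO at 24 h (left) and 48 h (right), with the 95% interval from the edgeR fit, 4 libraries per group; filled points have an adjusted p under 0.01. With GW3965 the change of ABCA1 was 4.61 at 24 h and 5.77 at 48 h, that of ABCG1 was 4.67 and 3.38, and LPCAT3 had 1.19 with both T0901317 and rosiglitazone at 24 h.

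ABCA1 (ENSG00000165029.11) encodes the pump that loads cholesterol and phospholipid onto apolipoprotein A-I, the protein core of nascent HDL. Its promoter was the only window among the promoters available for these genes that held an LXR-type repeat, and its upstream bases are therefore shown. RefSeq promoter windows of the GRCh38.p14 assembly, 250 bases before and 50 after the start site, were at hand for 4 of the 6 genes (ABCA1, MYLIP, LPCAT3 and TTC39B), in 5 windows. The DR4 motif was searched as AGGTCA, 4 free bases and AGGTCA again, on both strands and with at most 2 mismatches in the 12 fixed letters. The 250 bases before the ABCA1 start, chr9:104928156-104928405 on the minus strand, are written 5′ to 3′ with the match in capitals.
ABCA1 promoter: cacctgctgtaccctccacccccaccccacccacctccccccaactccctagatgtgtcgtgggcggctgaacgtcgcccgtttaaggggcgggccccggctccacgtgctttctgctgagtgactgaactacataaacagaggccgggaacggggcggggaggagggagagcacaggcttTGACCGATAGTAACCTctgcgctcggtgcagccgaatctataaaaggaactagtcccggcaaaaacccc
The match lies 54 to 69 bases upstream of the start and reads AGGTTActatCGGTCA on its own strand, with 2 mismatches. Such a match was present in 2.34% of all 35116 promoter windows of this length, and 0.205% held a match with at most 1 mismatch. None of the 5 windows held a DR1 motif (AGGTCA, 1 free base, AGGTCA) with at most 2 mismatches, which 2.97% of all windows did, or an exact AP1 motif (TGANTCA), which 7.71% did. DR1 and DR4 share the AGGTCA repeat and so can overlap. A match only states that these letters are in the window, and its absence only that they are not.

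In the 4 DMSO libraries of 24 h ABCA1 stood at 4.93, 4.47, 4.85 and 4.35 CPM. With GW3965 it stood at 108, 119, 124 and 107 CPM, a rise of 4.61 on the log2 scale (SE 0.09, adjusted p = 1.21e-17), or 24.5-fold. With T0901317 it stood at 55.9, 67.7, 64.7 and 55.1 CPM, a rise of 3.71 (SE 0.09, adjusted p = 5.67e-16), or 13.1-fold. No library of either agonist came near the DMSO libraries, and the lowest GW3965 library lay above the highest T0901317 library. With rosiglitazone ABCA1 stood at 2.23, 2.31, 2.84 and 2.32 CPM at 24 h and fell by 0.95 (SE 0.11, adjusted p = 3.9e-06). All 4 of these libraries lay below all 4 DMSO libraries, so the PPARG agonist and the LXR agonists moved ABCA1 in opposite directions at this time.

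At 48 h the DMSO libraries stood lower, at 3.17, 2.42, 1.83 and 2.12 CPM. With GW3965 ABCA1 stood at 134, 121, 141 and 123 CPM and rose by 5.77 (SE 0.13, adjusted p = 7.98e-17), or 54.7-fold. With T0901317 it stood at 75.4, 79.3, 79.1 and 96.1 CPM and rose by 5.12 (SE 0.13, adjusted p = 4.06e-16), or 34.8-fold. At 48 h ABCA1 thus had the largest change of the 6 genes with each LXR agonist. With rosiglitazone it stood at 3.11, 2.92, 3.62 and 3.60 CPM, which overlapped DMSO replicate 1, and the difference of 0.46 did not pass (SE 0.15, adjusted p = 0.0199). Without DMSO replicate 1 of 48 h it was 0.64 and passed (adjusted p = 0.00195), as it did with DESeq2 (0.48, adjusted p = 0.00344). Ordered by level over the 8 groups, GW3965 at 48 h (130.1 ± 9.51 CPM, SD, n = 4) and at 24 h (114 ± 8.55 CPM) came first and overlapped. T0901317 at 48 h (82.5 ± 9.24 CPM) and at 24 h (60.9 ± 6.33 CPM) followed without overlap, and the DMSO and rosiglitazone groups all lay below 5 CPM.

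ABCG1 (ENSG00000160179.13), which moves cholesterol to already formed HDL and within cells, had log2 changes near those of ABCA1 with the LXR agonists at 24 h and smaller ones at 48 h. Its DMSO libraries of 24 h stood at 6.89, 6.68, 6.44 and 7.88 CPM. With GW3965 it stood at 160.5, 187, 189 and 177 CPM and rose by 4.67 (SE 0.08, adjusted p = 3.08e-18), and with T0901317 at 132, 135, 156 and 142 CPM, a rise of 4.34 (SE 0.08, adjusted p = 1.04e-17). With rosiglitazone it stood at 9.91, 10.5, 9.35 and 9.88 CPM, all above the DMSO libraries, and rose by 0.50 (SE 0.08, adjusted p = 1.95e-04). Each of the 12 treated libraries was thus above each DMSO library, the PPARG agonist by far the least.

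At 48 h the DMSO libraries of ABCG1 had 24.1, 21.1, 24.0 and 23.2 CPM, well above those of 24 h. GW3965 took it to 229, 229, 264 and 246 CPM, a rise of 3.38 (SE 0.13, adjusted p = 4.33e-13). T0901317 took it to 186, 179, 183 and 209 CPM, a rise of 3.04 (SE 0.13, adjusted p = 1.99e-12). The treated levels were therefore higher than at 24 h although the fold change was smaller. Rosiglitazone at 48 h gave 41.1, 49.9, 75.7 and 51.8 CPM, which lay above all DMSO libraries with an SD of 14.8 around a mean of 54.6 CPM, and ABCG1 rose by 1.22 (SE 0.13, adjusted p = 3.99e-07). Over the 8 groups only T0901317 at 48 h (189 ± 13.5 CPM) and GW3965 at 24 h (178 ± 12.9 CPM) overlapped as neighbours in the order of the levels.

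MYLIP (ENSG00000007944.10) encodes the ubiquitin ligase IDOL, which marks lipoprotein receptors for breakdown and so limits uptake. It stood at 9.10, 7.92, 8.19 and 7.94 CPM in the DMSO libraries of 24 h. With GW3965 it stood at 23.1, 21.8, 23.0 and 23.6 CPM (a rise of 1.46, SE 0.08, adjusted p = 1.83e-10), and with T0901317 at 22.3, 22.7, 20.9 and 20.8 CPM (a rise of 1.39, SE 0.08, adjusted p = 6.72e-10). The agonist groups overlapped each other and lay far from DMSO. With rosiglitazone MYLIP stood at 9.29, 11.8, 11.3 and 9.73 CPM, just above the highest DMSO library, and the rise of 0.34 was small (SE 0.08, adjusted p = 0.00514). This call was lost with scaling by library size alone (0.24, adjusted p = 0.0531) and in a fit of only the 2 groups (0.34, adjusted p = 0.015). It was also lost without any of DMSO replicates 2, 3 and 4 or rosiglitazone replicates 2 and 3. Without these the change was 0.28 to 0.34 and the adjusted p 0.0149 to 0.0244.

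At 48 h MYLIP stood at 9.08, 6.85, 7.66 and 6.83 CPM with DMSO. GW3965 gave 24.4, 26.5, 24.7 and 26.6 CPM, a rise of 1.74 (SE 0.10, adjusted p = 7.6e-11), and T0901317 gave 25.1, 24.4, 22.1 and 24.7 CPM, a rise of 1.66 (SE 0.10, adjusted p = 1.53e-10). Rosiglitazone gave 10.7, 10.5, 14.1 and 12.5 CPM, all above DMSO, a rise of 0.63 (SE 0.10, adjusted p = 5.98e-05). In the order of the levels the 4 agonist groups, from 21.7 to 25.6 CPM on average, each overlapped the next, and so did the DMSO groups of both times.

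The mRNAs of VLDLR and LRP8, receptors that IDOL marks, were measured in the same libraries, although IDOL acts on the proteins, which were not measured. VLDLR, the very low density lipoprotein receptor, rose at 24 h with GW3965 by 1.62 and also with T0901317 (adjusted p = 2.31e-09 and 1.44e-08), and fell at 48 h with these agonists by 0.59 and 0.83 (adjusted p = 0.00233 and 1.15e-04). Its mean level in DMSO was 2.01 ± 0.207 CPM at 24 h and 19.9 ± 1.81 CPM at 48 h (SD, n = 4), and both agonist groups lay between these levels at both times. Its response at 48 h less that at 24 h was -2.20 with GW3965 (SE 0.19, adjusted p = 1.85e-10) and -2.32 with T0901317 (SE 0.20, adjusted p = 8.49e-11). LRP8, the apolipoprotein E receptor 2, rose at both times, by 0.61 and 0.67 at 24 h and by 1.45 and 1.33 at 48 h. Rosiglitazone raised VLDLR at both times, by 1.89 and 1.21 (adjusted p = 1.19e-10 and 1.44e-06).

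LPCAT3 (ENSG00000111684.6), the acyltransferase that places polyunsaturated fatty acids into membrane phosphatidylcholine, rose with all 3 drugs at both times. It stood at 82.8, 85.3, 77.7 and 81.9 CPM with DMSO at 24 h. GW3965 gave 240.4, 248, 246 and 236 CPM, a rise of 1.56 (SE 0.05, adjusted p = 6.74e-14), T0901317 gave 187, 188, 192 and 180.5 CPM, a rise of 1.19 (SE 0.05, adjusted p = 7.68e-12), and rosiglitazone gave 186, 197, 192 and 175 CPM, also a rise of 1.19 (SE 0.05, adjusted p = 4.43e-12). The T0901317 and rosiglitazone libraries were interleaved, and the GW3965 libraries stood above both.

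At 48 h LPCAT3 stood at 69.0, 64.96, 62.6 and 65.8 CPM with DMSO. GW3965 gave 286, 307, 294 and 305 CPM and a rise of 2.18 (SE 0.06, adjusted p = 1.75e-15). T0901317 gave 236, 225, 195 and 225 CPM and a rise of 1.75 (SE 0.06, adjusted p = 4.92e-14). Rosiglitazone gave 164, 159.8, 165 and 157 CPM and a rise of 1.28 (SE 0.06, adjusted p = 4.83e-12), and its libraries no longer overlapped those of T0901317. In the reference annotation LPCAT3 overlaps EMG1, a ribosome biogenesis gene, and the strand setting of the counting is not given in the sources used here, so reads in the overlap cannot be assigned with certainty. EMG1 itself rose by 0.31 with rosiglitazone at both times (adjusted p = 0.00625 and 0.00291) and passed with no LXR agonist.

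SMPDL3A (ENSG00000172594.8), a secreted phosphodiesterase of the acid sphingomyelinase family, was low throughout, with 24 to 207 counts per library. At 24 h it stood at 1.01, 1.37, 1.54 and 1.40 CPM with DMSO and at 2.45, 1.94, 3.25 and 2.47 CPM with GW3965, a rise of 0.92 (SE 0.18, adjusted p = 0.00359). The call was lost without DMSO replicate 1, 2 or 4 or GW3965 replicate 3, with changes of 0.78 to 0.95 and adjusted p of 0.0104 to 0.0199, and in a fit of these 8 libraries alone (adjusted p = 0.0149). With T0901317 it stood at 2.20, 2.07, 1.496 and 2.09 CPM, which overlapped DMSO (0.56, SE 0.19, adjusted p = 0.171), and with rosiglitazone at 0.778, 0.692, 1.04 and 0.976 CPM (-0.62, SE 0.21, adjusted p = 0.0402). At this depth 24 h therefore gave a call for GW3965 alone.

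At 48 h SMPDL3A stood at 2.47, 2.24, 2.98 and 2.80 CPM with DMSO. GW3965 gave 4.58, 3.93, 4.33 and 3.94 CPM, all above DMSO, and a rise of 0.67 (SE 0.12, adjusted p = 1.45e-04). T0901317 gave 3.07, 3.68, 3.07 and 3.31 CPM, also above all DMSO libraries, with a difference of 0.32 that did not pass (SE 0.12, adjusted p = 0.0427). Rosiglitazone gave 1.15, 1.49, 1.44 and 1.34 CPM, below all DMSO libraries, and SMPDL3A fell by 0.98 (SE 0.14, adjusted p = 1.36e-05). The gene was thus raised by GW3965 and lowered by rosiglitazone at 48 h.

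TTC39B (ENSG00000155158.13), a tetratricopeptide repeat protein known to promote the breakdown of LXR protein, rose with no drug. At 24 h it stood at 2.40, 3.07, 3.54 and 3.79 CPM with DMSO, at 3.04, 3.28, 3.85 and 3.46 CPM with GW3965 and at 4.32, 2.63, 3.48 and 5.17 CPM with T0901317. These groups overlapped, and the differences of 0.09 (SE 0.17, adjusted p = 0.89) and 0.31 (SE 0.17, adjusted p = 0.523) did not pass. The 95% intervals, -0.27 to 0.45 and -0.06 to 0.67, leave room for rises of up to 0.67. With rosiglitazone it stood at 1.87, 1.62, 1.45 and 1.49 CPM, below all DMSO libraries, and fell by 0.99 (SE 0.19, adjusted p = 6.76e-04).

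At 48 h TTC39B was highest with DMSO, at 11.9, 10.8, 11.6 and 11.3 CPM, and each drug group lay below. GW3965 gave 5.76, 5.66, 6.54 and 5.26 CPM, and TTC39B fell by 0.98 (SE 0.11, adjusted p = 9.58e-07). Rosiglitazone gave 6.90, 8.69, 6.998 and 8.21 CPM, and it fell by 0.59 (SE 0.11, adjusted p = 3.97e-04). T0901317 gave 7.22, 7.80, 9.63 and 10.3 CPM, and the gene fell by 0.38 (SE 0.11, adjusted p = 0.00886). That last call was lost without any DMSO replicate and without T0901317 replicate 1 or 2, with changes of -0.41 to -0.31 and adjusted p of 0.0114 to 0.0343. In bulk libraries such as these, fewer cells that express a gene and less RNA per cell cannot be told apart.

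GW3965 and T0901317 were given at the same dose and for the same times, which allowed 12 direct comparisons, 1 per gene and time. Their p-values are adjusted over all genes tested. ABCA1 was higher with GW3965 than with T0901317 by 0.91 at 24 h (SE 0.07, adjusted p = 5.22e-07) and by 0.65 at 48 h (SE 0.10, adjusted p = 1.97e-04). LPCAT3 was higher with GW3965 by 0.37 at 24 h (SE 0.05, adjusted p = 2.61e-04) and by 0.43 at 48 h (SE 0.06, adjusted p = 8.43e-05). Alone among these genes, TTC39B was lower with GW3965 at 48 h, by -0.59 (SE 0.11, adjusted p = 0.00141). These were 2 genes higher at 24 h, against 0.193% of all genes, and 2 higher and 1 lower at 48 h, against 5.03% and 3.32%, while 0.597% of all genes were lower at 24 h.

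The other 7 comparisons of the agonists did not pass. ABCG1 differed by 0.33 at 24 h, with a 95% interval of 0.19 to 0.47 and an adjusted p of 0.0114, and by 0.35 at 48 h, with an interval of 0.10 to 0.60 and an adjusted p of 0.0513. The 24 h difference of ABCG1 passed with DESeq2 (adjusted p = 6.58e-04), with scaling by library size alone (adjusted p = 0.00532), with no filter (adjusted p = 0.00666) and without GW3965 replicate 1 (0.38, adjusted p = 9.64e-04) or T0901317 replicate 3 (0.38, adjusted p = 0.00555). Its 48 h difference passed in a fit of only the 2 agonist groups (0.35, SE 0.07, adjusted p = 0.00226). For MYLIP the difference was 0.08 at both times, with intervals of -0.08 to 0.23 and -0.11 to 0.27, so differences beyond 0.27 lay outside both. For SMPDL3A it was 0.36 (interval -0.01 to 0.74) and 0.35 (0.11 to 0.60), and for TTC39B at 24 h -0.22 (-0.57 to 0.14).

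The responses at 48 and 24 h were compared in a fit of all 32 libraries and 23140 genes, each drug against the DMSO libraries of its own time. The rise of ABCA1 was larger at 48 h by 1.16 with GW3965 (SE 0.16, adjusted p = 7.65e-07) and by 1.42 with T0901317 (SE 0.16, adjusted p = 2.5e-08). With rosiglitazone its change at 48 h less that at 24 h was 1.43 (SE 0.19, adjusted p = 1.29e-05), from the fall of 24 h to the difference of 48 h that did not pass. LPCAT3 likewise had larger responses to GW3965 (0.62, SE 0.07, adjusted p = 7.03e-08) and T0901317 (0.56, SE 0.07, adjusted p = 5.02e-07), but its response to rosiglitazone differed by only 0.11 (95% interval -0.04 to 0.25, adjusted p = 0.455). ABCG1 went the other way with the LXR agonists, by -1.29 with GW3965 (SE 0.16, adjusted p = 1.3e-07) and -1.31 with T0901317 (SE 0.16, adjusted p = 1.16e-07). With LXR agonists the efflux pumps therefore parted between the times in their fold over DMSO, which grew for ABCA1 and shrank for ABCG1. Their mean treated levels were higher at 48 h for both pumps, a description across the times that was not tested. With GW3965 the mean went from 114 to 130 CPM for ABCA1, with overlap, and from 178 to 242 CPM for ABCG1. With T0901317 it went from 60.9 to 82.5 CPM for ABCA1 and from 141 to 189 CPM for ABCG1, both without overlap. The DMSO mean went from 4.65 to 2.39 CPM for ABCA1 and from 6.97 to 23.1 CPM for ABCG1.

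With rosiglitazone the response of ABCG1 was larger at 48 h by 0.73 (SE 0.17, adjusted p = 0.00597), a call lost without any of 9 single libraries, namely DMSO replicates 1, 2 and 4 and rosiglitazone replicates 1, 3 and 4 of 24 h and DMSO replicates 2, 3 and 4 of 48 h, where it was 0.65 to 0.75 with adjusted p of 0.0106 to 0.0268. TTC39B had a lower response to GW3965 at 48 h, by -1.06 (SE 0.20, adjusted p = 1.31e-04), and one to T0901317 of -0.69 that did not pass (SE 0.20, adjusted p = 0.0106). The T0901317 value passed with DESeq2 (-0.69, adjusted p = 0.0035) and without any of DMSO replicates 3 and 4 of 24 h or T0901317 replicates 2 and 3 of 24 h and 3 and 4 of 48 h (-0.82 to -0.75). None of the 6 tests for MYLIP and SMPDL3A passed, with differences between -0.34 and 0.31 and adjusted p from 0.0852 to 0.466. Over all genes 9.96% had a higher and 11.7% a lower response at 48 h with GW3965, 7.49% and 9.95% with T0901317, and 1.38% and 1.06% with rosiglitazone.

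The level in DMSO differed between the times for most of these genes, and the libraries of each time stand in their own table, so time and table cannot be told apart. From 24 to 48 h the mean DMSO level of ABCG1 went from 6.97 ± 0.635 to 23.1 ± 1.39 CPM (SD, n = 4), a ratio of 3.31, and that of TTC39B from 3.20 ± 0.609 to 11.4 ± 0.466 CPM, a ratio of 3.56. SMPDL3A had a ratio of 1.97, and ABCA1 had 0.513, from 4.65 ± 0.283 to 2.39 ± 0.578 CPM. LPCAT3 had 0.800, with no overlap between the times, and MYLIP had 0.918, with overlap. Among 23095 genes with counts in both DMSO groups the median ratio was 1, and 2.80% had a ratio of at least 3 and 6.85% a ratio of at most 0.55. The T0901317 level of ABCG1 thus went from 141 ± 10.7 to 189 ± 13.5 CPM between the times while its fold change over DMSO shrank.

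**Figure D3:**
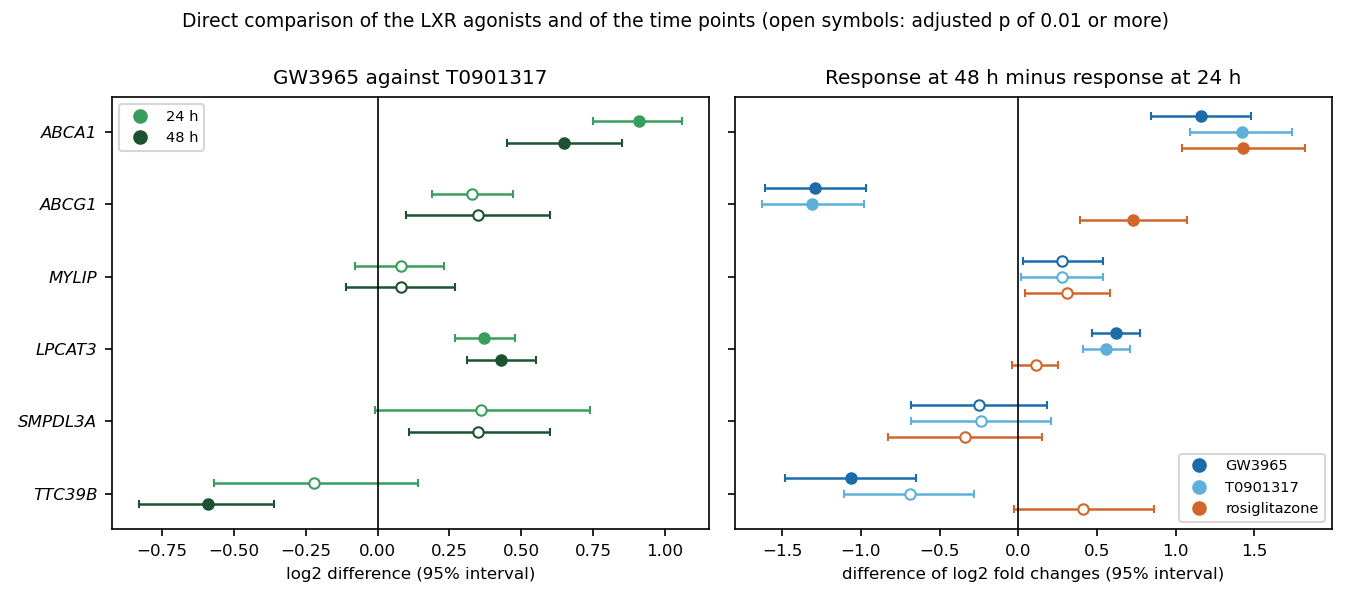
Left, log2 difference between GW3965 and T0901317 at 24 and 48 h; right, log2 fold change over DMSO at 48 h minus that at 24 h for each drug. Bars are 95% intervals from the edgeR fits with 4 libraries per group, and filled points have an adjusted p under 0.01. ABCA1 lies to the right of 0 in both panels, with 0.91 at 24 h on the left, and ABCG1 lies at -1.29 and -1.31 for the LXR agonists on the right.

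The mRNAs of the receptors that these drugs bind, and of their partners, were followed in the same fits. NR1H3, which encodes LXRA and is itself a known LXR target, rose with all 3 drugs at both times, at 24 h by 1.10, 0.74 and 0.81 and at 48 h by 1.65, 1.21 and 1.09 with GW3965, T0901317 and rosiglitazone (adjusted p = 1.55e-08, 6.92e-06, 3.48e-07, 2.24e-13, 1.82e-11 and 9.28e-11). NR1H2, which encodes LXRB, did not pass at 24 h, fell at 48 h by 0.25 with GW3965 and by 0.49 with T0901317, and rose by 0.26 with rosiglitazone (adjusted p = 9.91e-04, 1.04e-06 and 0.0012). PPARG fell at 48 h by 1.08 with GW3965, by 0.71 with T0901317 and by 0.47 with the drug that binds it, which also lowered it by 0.50 at 24 h. PPARD rose with rosiglitazone by 0.94 at 24 h and 1.94 at 48 h and fell with the LXR agonists at 48 h by 0.55 and 0.74. PPARA rose at 48 h by 0.58 with GW3965 and 0.62 with T0901317. Among the retinoid X receptors RXRA rose with GW3965 at 48 h by 0.43, RXRB passed in no comparison with DMSO, with changes from -0.15 to 0.11, and RXRG had no count in any of the 32 libraries.

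Of 18 other genes known as LXR targets, 14 were tested. With GW3965, 7 rose and 0 fell at 24 h and 9 rose and 1 fell at 48 h, and with T0901317, 6 rose at 24 h and 8 at 48 h and 0 fell. Their median change was 0.64 with GW3965 and 0.49 with T0901317 at 24 h, below that of the 6 genes. Rosiglitazone raised 2 at 24 h and 5 at 48 h and lowered 0. Over all genes 1.86% and 16.1% were higher with GW3965 at 24 and 48 h, 1.33% and 14% with T0901317, and 5.81% and 12.3% with rosiglitazone. SREBF1, the transcription factor of fatty acid synthesis, rose with GW3965 by 1.99 at 24 h and 2.16 at 48 h, and SCD, the stearoyl-CoA desaturase, by 2.01 and 2.57. FASN, the fatty acid synthase, rose by 1.56 at 24 h and 3.17 at 48 h with GW3965, and PLTP, the phospholipid transfer protein, by 1.13 and 2.19. Each of these 4 also rose with T0901317 at both times except PLTP at 24 h (0.78, adjusted p = 0.0112).

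Of 14 genes related to the 6 by family or, as LPCAT1, LPCAT2 and LPCAT4 are to LPCAT3, by enzyme activity, 13 were tested. At 24 h 1 fell with GW3965, against 0.868% of all genes, and 1 rose with T0901317, against 1.33%, and this was ABCG2 in both cases. Rosiglitazone raised 1 and lowered 2 at 24 h, against 5.81% and 6.52% of all genes. ABCG2, a multidrug efflux pump related to ABCG1, fell with GW3965 by 0.46 (adjusted p = 0.00173) and rose with T0901317 by 0.41 (adjusted p = 0.00791). The direct difference between the agonists was -0.88 at 24 h (SE 0.09, adjusted p = 4.73e-06) and -1.45 at 48 h (SE 0.09, adjusted p = 9.03e-09). At 48 h 5 of these 13 genes rose and 1 fell with GW3965, against 16.1% and 17.5% of all genes. With T0901317 at 48 h 7 rose and 0 fell, against 14% and 16.1%. LPCAT1, an acyltransferase that makes saturated phosphatidylcholine, rose at 48 h by 1.39 with GW3965 and 1.36 with T0901317 and fell by 0.66 with rosiglitazone, whereas LPCAT3 rose with all 3 drugs. The acyltransferase LPCAT4 rose by 1.02 and 1.09, ABCA2 by 0.89 and 0.56, and MBOAT7, a phosphatidylinositol acyltransferase, by 0.76 and 0.44 with GW3965 and T0901317 at 48 h. Rosiglitazone at 48 h raised 1 of the 13 genes and lowered 8, against 12.3% and 13.1% of all genes.

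Among 14 genes of cholesterol uptake, transport and storage, 13 were tested, and besides VLDLR and LRP8 only NPC1 passed at 24 h with an LXR agonist (0.39 with GW3965, adjusted p = 4.07e-04). At 48 h 6 rose and 3 fell with GW3965, where 16.1% of all genes rose and 17.5% fell, and 5 rose and 3 fell with T0901317, where 14% rose and 16.1% fell. NPC1, which releases cholesterol from late endosomes, fell by 0.78 and 0.88, and its partner NPC2 rose by 0.60 and 0.71. With rosiglitazone the same pair went the opposite way at 48 h, with a rise of 0.61 for NPC1, while NPC2 fell by 0.91.

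**Figure D4:**
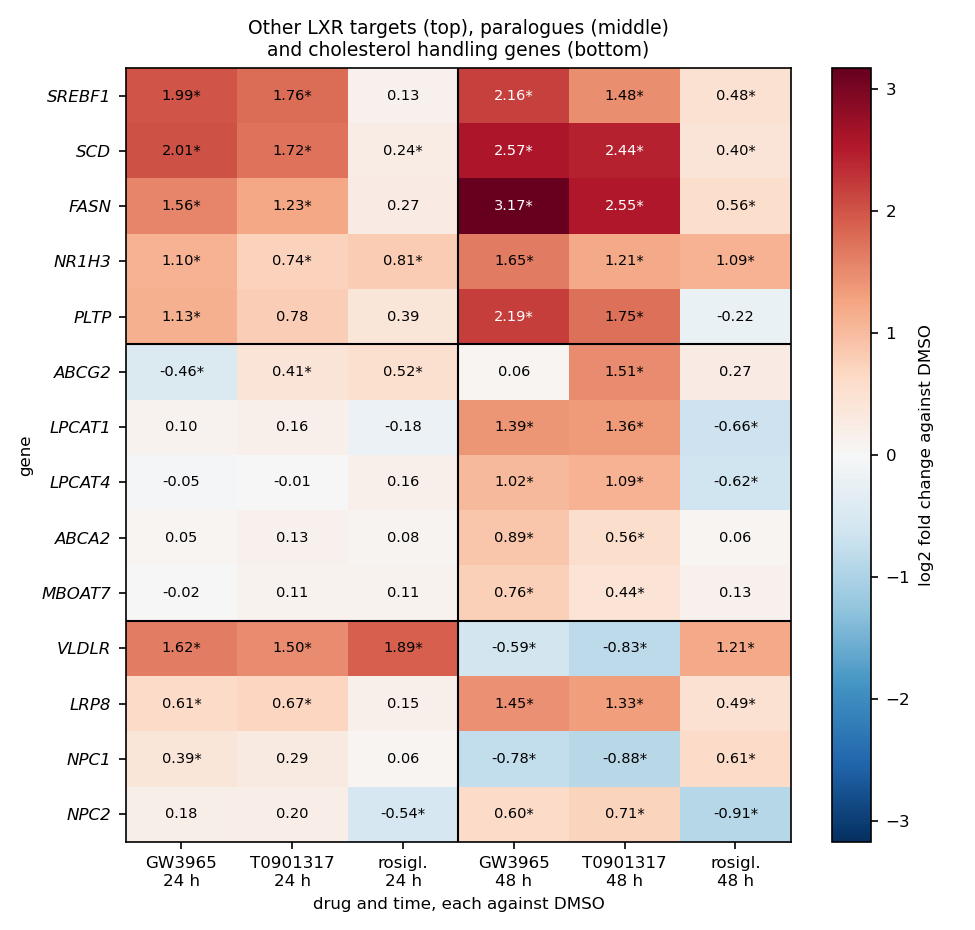
Log2 fold change against DMSO, printed in each cell and coded by colour, by drug and time with 4 libraries per group. The blocks are other LXR targets (top), genes related to the 6 by family or enzyme activity (middle, headed paralogues) and cholesterol handling genes (bottom). An asterisk marks an adjusted p under 0.01. Only genes that passed with both LXR agonists at a time point were drawn, at most 4 per list and time, so rises in the top block follow from this choice. Of the 14 other LXR targets tested, 7 did not pass with GW3965 at 24 h and 8 did not with T0901317. Within the top block only PLTP with T0901317 at 24 h (0.78) did not pass with an LXR agonist. VLDLR went from 1.62 to -0.59 with GW3965.

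The genes most like each of the 6 in pattern were found by the Pearson correlation of log2 CPM, less the DMSO mean of the time point, over the 32 libraries and among 14306 genes. The libraries share their controls, so the values are a description. ABCA1 was most like the fatty acid synthesis genes SCD (r = 0.982) and ACACA (0.981) and AL139819.1 (0.981), and MYLIP was most like SCDP1 (0.974), AL139819.1 (0.974) and SCD (0.973). SCDP1 is a pseudogene of SCD, so reads of these may be shared and its values are uncertain. AL139819.1 changed almost as SCD did, with GW3965 by 2.06 and 2.01 at 24 h and by 2.58 and 2.57 at 48 h. Whether it shares reads with SCD was not tested, so these hits may not be separate. With rosiglitazone at 24 h, where ABCA1 fell by 0.95, SCD and AL139819.1 rose by 0.24 and 0.28, and ACACA (0.05) did not pass. A high r therefore does not mean the same direction with every drug. ABCG1 was most like ACSL3, an acyl-CoA synthetase (0.968), SREBF1 (0.941) and GRAMD1B, a carrier of cholesterol from the plasma membrane to the endoplasmic reticulum (0.939). With rosiglitazone at 24 h, where ABCG1 rose by 0.50, GRAMD1B fell by 0.25, and ACSL3 (0.18) and SREBF1 (0.13) did not pass. SMPDL3A was most like SLC6A20 (0.941), an amino acid transporter that rose with GW3965 by 1.45 at 24 h and fell with rosiglitazone by 1.79, followed by UTRN (0.914) and OPTN (0.893). TTC39B had the lowest values, with DYX1C1 (0.881), PHF3 (0.859) and LMO4 (0.853). Among the 6 genes themselves r was highest between ABCA1 and MYLIP (0.947) and lowest between LPCAT3 and TTC39B (-0.470).

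LPCAT3 was most like C1S, a complement protease (r = 0.979), followed by NR1H3 (0.977) and POU3F1 (0.956). C1S is also the next protein-coding gene to LPCAT3 on its chromosome in the reference annotation, which was looked up after the likeness had been seen. C1S stood at 2.76 ± 0.116 CPM in the DMSO libraries of 24 h and 1.66 ± 0.234 CPM in those of 48 h (SD, n = 4). With GW3965, T0901317 and rosiglitazone it rose by 1.55, 1.14 and 1.28 at 24 h and by 2.16, 1.66 and 1.32 at 48 h (adjusted p = 1.05e-08, 1.82e-06, 6.94e-08, 2.86e-10, 1.13e-08 and 4.81e-07). The changes of LPCAT3 in the same order were 1.56, 1.19 and 1.19 at 24 h and 2.18, 1.75 and 1.28 at 48 h. Whether reads of LPCAT3 transcripts were counted for C1S was not tested.

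**Figure D5:**
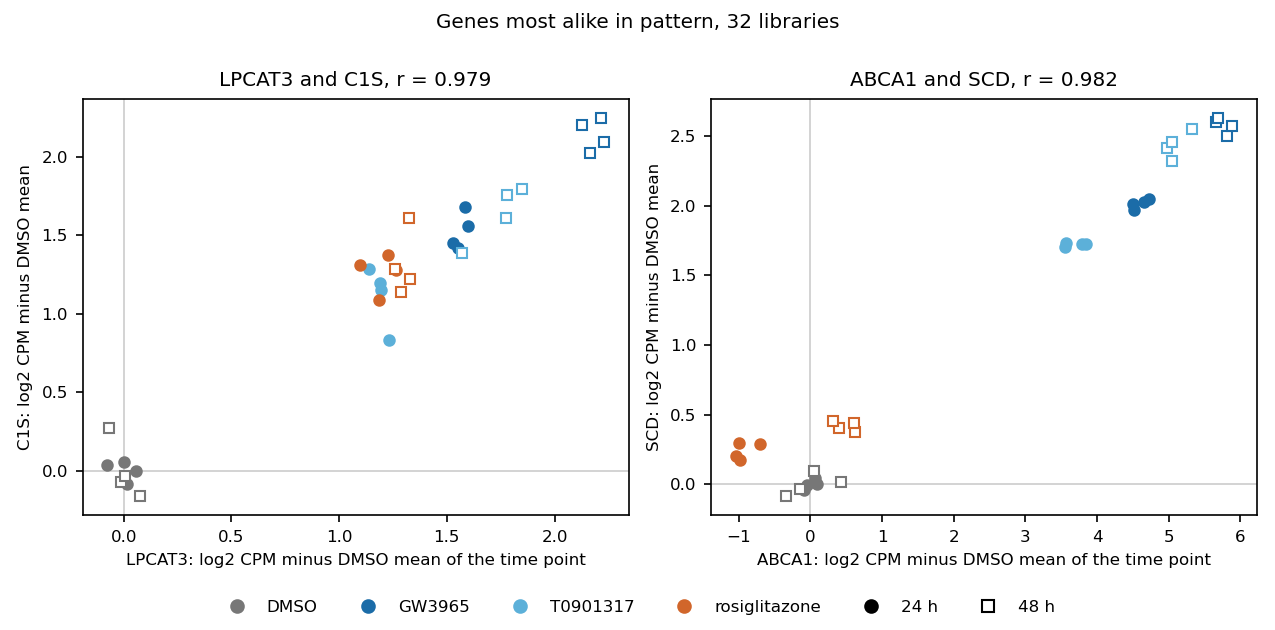
Log2 CPM less the DMSO mean of the time point for LPCAT3 and C1S (left) and for ABCA1 and SCD (right), with 1 point per library and 32 libraries, circles for 24 h and open squares for 48 h. The GW3965 libraries of 48 h lie at the upper right in both panels, and r is 0.979 on the left and 0.982 on the right.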

How the data were processed

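The authors sequenced mRNA of HT29 cells from both ends after Nextera fragmentation and deposited whole-number read counts per Ensembl gene, without normalization, in a table of 51838 rows per time point. The submitters' processing notes name TopHat, Cufflinks and the build hg19 for these libraries. Neither the counting program nor its strand setting is given in the sources used here. The members and gene lists were chosen with earlier results of these data known.

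For each time point 1 edgeR 4.0.16 model (R 4.3.3) covered its 16 libraries, after the package's low count filter and TMM scaling and with group as the only term. Drugs were compared by quasi-likelihood tests, adjusted over all genes after Benjamini and Hochberg. A fit of all 32 libraries tested whether responses differed between 48 and 24 h. The SE is the fold change divided by the root of its F value. CPM values use TMM factors of all 32 libraries. Total counts of 21044798 to 51332656 per library limit the precision, most for SMPDL3A. Of each list, the genes passing with both LXR agonists at a time point were named, at most the 4 with the largest mean change, with all receptors, IDOL substrates and the 3 genes of highest likeness per member among those with a mean log2 CPM of at least 1. EMG1, C1S as a neighbour and the neighbours below were looked up after the values were seen. Replicates of a group differed in all 48 pairs by more than sampling noise (chi-square per degree of freedom 3.66 to 73.2). Replicate numbers did not pair the libraries. Alternatives covered DESeq2 1.42.0, scaling, the filter, the replicate block, the libraries in the fit, a test against a fold of 1.5 and leaving out single libraries, and the methods were tested on simulated data. A result on a further gene of the lists is not reported here. Peak files were not used, since gene positions of their build were not at hand. Promoter sequences are from RefSeq (GRCh38.p14). Plots were drawn with matplotlib 3.10.9 in Python 3.11.15.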

Additional observations from a re-analysis of the deposited data

Results flagged for a closer look

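In 1 of 48 groups of 4 libraries the highest library stood apart from the rest. This was ABCA1 with rosiglitazone at 24 h, where replicate 3 had 2.84 CPM, the others lay between 2.23 and 2.32 CPM, and the gap was 0.857 of the whole range. Chance gives such a gap in about 1 in 20 groups.

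Responses that differed by test between the LXR agonists or between the times, on the log2 scale, were the following. GW3965 against T0901317 gave 0.91 at 24 h and 0.65 at 48 h for ABCA1, 0.37 and 0.43 for LPCAT3, and -0.59 at 48 h for TTC39B. The response at 48 h less that at 24 h was 1.16, 1.42 and 1.43 for ABCA1 with GW3965, T0901317 and rosiglitazone, and -1.29, -1.31 and 0.73 for ABCG1. For LPCAT3 it was 0.62 with GW3965 and 0.56 with T0901317, and for TTC39B it was -1.06 with GW3965.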

How the results depend on the processing

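All 6 genes kept their direction with every drug under every alternative, except TTC39B with GW3965 at 24 h, which had not passed and ranged from -0.03 without DMSO replicate 1 to 0.18. A test against a fold of 1.5 left 4 of the 6 higher with GW3965 at each time, without SMPDL3A (adjusted p = 1 and 0.595), 2 higher with rosiglitazone at 48 h, without MYLIP (adjusted p = 0.892), 1 higher and 0 lower with rosiglitazone at 24 h, 0 lower with rosiglitazone and with T0901317 at 48 h, and 0 different between the LXR agonists at 24 h or, in either direction, at 48 h; a fit of only the 2 groups left 1 higher with GW3965 than T0901317 at 24 h. The decrease of TTC39B with T0901317 at 48 h, the only one there, was lost (0 lower) with scaling by library size, with no filter and with the replicate block, and the count was 0 to 1 over single libraries left out. The response to T0901317 was lower at 48 h for 2 genes with DESeq2 and for 1 to 2 over single libraries left out, and that to rosiglitazone was higher for 1 to 2. The fit of only the 2 groups also lost the calls of SMPDL3A with GW3965 and of MYLIP with rosiglitazone at 24 h. It gained that of ABCG1 between the agonists at 48 h. Causes were not tested, beyond the stricter test and the fewer libraries themselves.

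Same-numbered libraries did not deviate together (correlation of residuals -0.0845 to 0.122 at 24 h and -0.0467 to 0.0876 at 48 h). The replicate block otherwise lost the call of MYLIP with rosiglitazone at 24 h (adjusted p = 0.0115) and changed no other call of the 6 genes. Scaling by library size alone moved the median of all genes with rosiglitazone to -0.11 at 24 h and -0.19 at 48 h and the share of higher among passing genes from 47.1% to 25.2% and from 48.4% to 20.1%; this share also went from 68.2% to 55.4% (GW3965 at 24 h), 60.2% to 31.9% (GW3965 against T0901317 at 48 h), and 42.9% to 55.7% and 56.5% to 29.3% (responses to T0901317 and rosiglitazone between times). Peaks near these genes, with their limits on score, distance and replicates, were not run. PHF3 had an r with TTC39B of 0.971 over the 8 group means. Depth limits SMPDL3A, with 24 to 207 counts.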

Other observations

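The flanking protein-coding genes of the 6 members, the nearest on each side and the next beyond them with any that overlap, were looked up by name in the reference annotation after C1S had been seen. Of 26 such genes 18 were tested at 24 h. With GW3965 at that time 2 of the 18 rose and 0 fell, and with T0901317 1 rose and 0 fell, where 1.86% and 1.33% of all genes rose. C1S, which prompted the look-up, is counted among these rises and those of each drug below. It was the only rise with T0901317 at 24 h, and PKIB was the only other with GW3965. The counts are therefore no test of whether neighbours changed more often than other genes. Rosiglitazone raised 4 and lowered 3 at 24 h, against 5.81% and 6.52% of all genes. At 48 h, of 19 tested, 5 rose and 4 fell with GW3965, 3 rose and 3 fell with T0901317, and 5 rose and 7 fell with rosiglitazone, where 16.1% and 17.5%, 14% and 16.1%, and 12.3% and 13.1% of all genes did. Both agonists raised C1S beside LPCAT3, and GW3965 also raised PKIB, a protein kinase A inhibitor 2 genes from SMPDL3A, by 0.76 (adjusted p = 2.24e-06). PKIB was higher with GW3965 than with T0901317 by 0.84 at 24 h and 0.71 at 48 h (adjusted p = 3.8e-06 and 8.7e-04), and it rose with rosiglitazone by 1.03 and 1.33, while SMPDL3A fell with rosiglitazone at 48 h. The neighbours next to or overlapping ABCA1, which rose by 4.61 with GW3965 at 24 h, had changes at that time of 0.03 (SLC44A1), -0.15 (NIPSNAP3A) and -0.13 (NIPSNAP3B), none of which passed (adjusted p = 0.895, 0.798 and 0.949). At 48 h SLC44A1, a choline transporter, rose with GW3965 by 0.21 and with T0901317 by 0.40 (adjusted p = 0.00307 and 6.8e-06), and it fell with rosiglitazone at 24 h by 0.26 and at 48 h by 0.45. Next to ABCG1, TFF3, a goblet cell trefoil peptide, had -0.07 with GW3965 at 24 h (adjusted p = 0.844) and fell with rosiglitazone at 48 h by 2.41 (adjusted p = 1.35e-10), the opposite direction to ABCG1.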
